A study of Homo sapiens with 24 samples.

Results

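The comparison set SW620 cells that carried a Tet2CD lentivirus against SW620 cells that carried the empty vector, over every treatment given. It used the estimated gene counts of the 12 SW620 libraries of 24 in the series, 6 from Tet2CD cells and 6 from vector cells, and treatment entered as a blocking factor so that cells of the same treatment were compared with each other. SW620 is an established human line from a lymph node metastasis of a colorectal adenocarcinoma. Tet2CD is a construct with the catalytic domain of TET2. Both populations were infected with virus packaged in HEK293T cells and selected with 5 µg/ml puromycin, and cells of each were then exposed for 24 h to DMSO, to TGFB1 at 4 ng/ml or to RepSox at 1 µM, which blocks the kinase of the TGF-beta type I receptor. Each of these 6 groups had 2 libraries. The labels name no clone and no separate infections, so the construct and the history of the selected population cannot be told apart, and p-values rest on library-to-library spread, part or all of which may be technical. The sample labels, followed here, and the study's text differ on the ligand and the duration.

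TET2 is a dioxygenase that converts 5-methylcytosine in DNA to 5-hydroxymethylcytosine and further oxidised forms, which can lead to loss of methylation at CG dinucleotides. Methylated CG-rich promoters are often silent, and imprinted genes, germline genes and several epithelial genes are well-known cases of genes controlled by methylation. In colorectal cancer the WNT and TGF-beta pathways and the balance of epithelial and mesenchymal genes are the usual readouts of a more or less invasive state. No methylation was measured here, and the data are RNA levels only.

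Total expected counts of the 12 libraries lay between 2817697 and 4410567 (median 3915349), and 13965 of 33382 genes had enough counts to be tested. Levels are in CPM, counts per 1000000 after scaling for library composition, and fold changes are on the log2 scale with a standard error (SE). A gene is said to have risen or fallen when its adjusted p in edgeR's quasi-likelihood test was under 0.05. The first principal component (42.7% of the variance) followed treatment and the third (9.87%) separated the constructs, apart from replicate 2 of vector cells with RepSox, which lay on the Tet2CD side at 8.6 while its partner lay at -17. Of the colon epithelial markers 9 of 12 had enough counts to be tested, and their summed level was 7094 to 10860 TPM in Tet2CD and 6843 to 10650 TPM in vector cells. CDX1 had no count in any vector library, so the sum does not stand for each marker. Summed markers of other cell types stayed at 34.3 to 54 TPM for blood, 2.86 to 12.6 for endothelium, 43 to 65.4 for fibroblasts and 26.4 to 58.1 for embryonic kidney, with PTPRC, HBB, KDR, COL3A1 and NEFL at 0 counts in all 12 libraries.

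TET2 was the check of the construct. It stood at 1293 and 1298 CPM in Tet2CD cells with DMSO, 1225 and 1178 with TGFB1, and 752 and 701 with RepSox. In vector cells it stood at 10.8 and 11.6 CPM with DMSO, 17.9 and 24.8 with TGFB1, and 11.1 and 15 with RepSox. The lowest Tet2CD library was therefore far above the highest vector library, and the fold change was 6.12 (SE 0.14, adjusted p = 2.45e-17, 69.5-fold). Reads of the construct and of the cell's own gene (chr4:105145875-105279816, GRCh38) cannot be separated.

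Across all genes tested, 379 were higher and 271 lower in Tet2CD cells, 650 in total or 4.65% (2.71% higher and 1.94% lower). Most changes were small, and in bulk RNA fewer cells that express a gene and less RNA per cell cannot be told apart. The median was 0.47 among the genes that rose and -0.36 among those that fell, and 57 of the former and 12 of the latter differed at least 2-fold. In 430 of the 650 the libraries of the constructs did not overlap in any of the 3 treatments, where 3.52% of all genes tested stood apart upwards and 2.47% downwards. The genes that rose had a median GC content of 57.8% and those that fell of 42.6%, against 49.7% for all genes tested. The mean GC content of counted genes was 50.5% and 50.4% in Tet2CD cells against 50.1% and 50% in vector cells with DMSO, 50.8% and 50.4% against 49.9% and 49.7% with TGFB1, and 49.9% and 49.9% against 49.5% and 50.3% with RepSox. With an offset for GC content 278 genes were higher (1.99%) and 245 lower (1.75%), with medians of 53.9% and 52.7% GC, and 357 genes were called with and without the offset (229 higher and 128 lower). The part of base composition in the other calls was not tested.

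Replicate 2 of vector cells with RepSox weighed most on the count. Without it 842 of 14500 genes were higher (5.81%) and 929 lower (6.41%), 1771 in total, and with the GC offset and without that library, a setting chosen after seeing the data, 508 were called (283 higher and 225 lower). The count also moved by more than 1.5 times without Tet2CD DMSO replicate 1 (245) or replicate 2 (388), Tet2CD RepSox replicate 1 (350), vector DMSO replicate 1 (349) or replicate 2 (326), vector TGFB1 replicate 1 (307) or replicate 2 (262), or vector RepSox replicate 1 (295). Of the 650 genes, 192 were called whichever library was left out. DESeq2 split its 629 calls into 303 higher and 326 lower, and 492 of the 650 were among them.

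**Figure D1:**
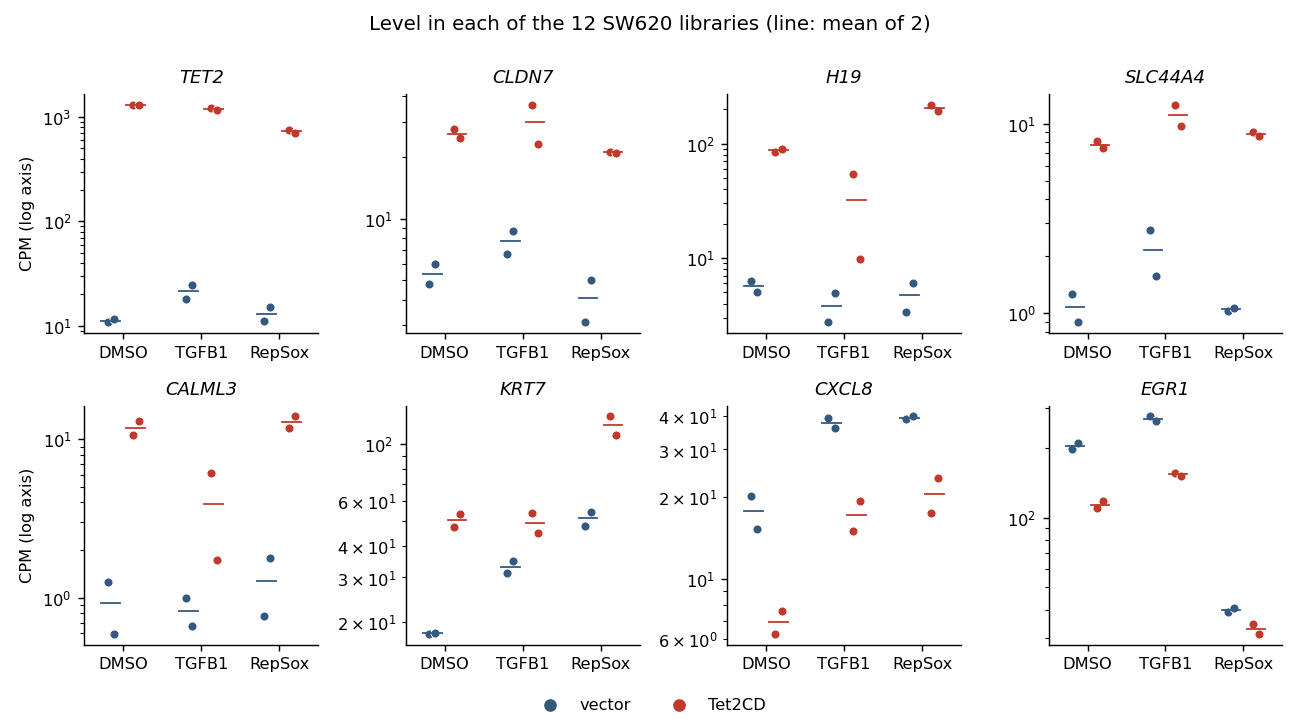
CPM (log axes) of 8 genes in each of the 12 SW620 libraries by treatment, with vector cells in blue, Tet2CD cells in red and a line at the mean of 2. TET2 is at 701 CPM or more in every Tet2CD library and at 24.8 CPM or less in every vector library, and H19 with TGFB1 shows the widest spread between libraries of a group, 54.2 and 9.73 CPM.

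CLDN7 encodes claudin-7, a tight junction protein of epithelia. It stood at 27.4 and 24.8 CPM in Tet2CD cells with DMSO, 36.1 and 23.3 with TGFB1 and 21.3 and 21 with RepSox, against 4.75 and 5.97, 6.72 and 8.73, and 3.09 and 5.01 CPM in vector cells. No Tet2CD library fell within the range of the vector libraries, and the fold change was 2.17 (SE 0.15, adjusted p = 4.8e-08) and 2.07 with the GC offset. Per transcript length its level was 36.6 ± 10.8 TPM against 11.8 ± 4.8 TPM (SD, n = 6). The choline and thiamine pyrophosphate transporter gene SLC44A4 stood between 7.4 and 12.5 CPM (median 8.82) in Tet2CD and between 0.895 and 2.74 CPM (median 1.17) in vector cells. Its 6 Tet2CD libraries also lay above all vector libraries, with a fold change of 2.67 (SE 0.23, adjusted p = 8.62e-07).

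CALML3 encodes a calmodulin-like protein of epithelial cells. Its level was 10.6 and 13.1 CPM in Tet2CD cells with DMSO, 6.11 and 1.74 with TGFB1 and 11.8 and 13.9 with RepSox, and between 0.597 and 1.79 CPM in vector cells. The lowest Tet2CD library, with TGFB1, lay just under the highest vector library, with RepSox, while libraries of the same treatment did not overlap (fold change 3.17, SE 0.32, adjusted p = 8.73e-06). CALML3-AS1, which overlaps it on the other strand, rose by 1.22 (SE 0.23, adjusted p = 0.00509), and because the use of strand in the counting is not stated, reads of the overlap cannot be assigned. The simple-epithelium keratin gene KRT7 rose by 1.07 (SE 0.12, adjusted p = 1.87e-05). It stood at 47.3 and 53.2 CPM in Tet2CD cells with DMSO, 53.6 and 44.8 with TGFB1 and 128 and 109 with RepSox, against 18.1 and 18.2, 31.4 and 34.7, and 47.8 and 54.4 CPM in vector cells, so that the constructs overlapped across treatments and not within them.

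The imprinted non-coding gene H19 had the fourth largest increase. It stood at 84.8 and 90 CPM in Tet2CD cells with DMSO, 54.2 and 9.73 with TGFB1 and 217 and 194 with RepSox, against 6.34 and 5.07, 2.74 and 4.92, and 3.34 and 6.08 CPM in vector cells. Every Tet2CD library was above every vector library, although the libraries with TGFB1 differed from each other by more than 5-fold (fold change 4.36, SE 0.32, adjusted p = 7.82e-08). The antisense gene AFAP1-AS1 lay between 2.43 and 5.79 CPM (median 4.52) in Tet2CD and between 0.224 and 1.43 CPM (median 0.547) in vector cells, without overlap (2.65, SE 0.35, adjusted p = 0.000247). Its partner on the other strand, AFAP1, was at 0.03 (SE 0.10, adjusted p = 0.902). Its counts are few, 95 in the Tet2CD and 13 in the vector libraries.

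The promoters of the 4 genes with the smallest p other than TET2 are shown because CG dinucleotides are the sites at which TET2 acts. They run from 250 bases before to 50 after a transcription start in RefSeq (GRCh38.p14), are written 5′ to 3′ on the strand of the gene with every CG in capitals, and for CLDN7 and SLC44A4 are the entry of 2 with more CG.
CLDN7: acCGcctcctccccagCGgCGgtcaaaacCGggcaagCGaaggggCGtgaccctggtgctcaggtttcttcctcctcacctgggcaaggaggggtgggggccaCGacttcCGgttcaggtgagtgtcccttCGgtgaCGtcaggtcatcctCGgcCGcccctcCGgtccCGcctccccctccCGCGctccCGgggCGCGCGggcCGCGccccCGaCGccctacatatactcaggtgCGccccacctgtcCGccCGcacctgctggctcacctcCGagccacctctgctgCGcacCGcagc
H19: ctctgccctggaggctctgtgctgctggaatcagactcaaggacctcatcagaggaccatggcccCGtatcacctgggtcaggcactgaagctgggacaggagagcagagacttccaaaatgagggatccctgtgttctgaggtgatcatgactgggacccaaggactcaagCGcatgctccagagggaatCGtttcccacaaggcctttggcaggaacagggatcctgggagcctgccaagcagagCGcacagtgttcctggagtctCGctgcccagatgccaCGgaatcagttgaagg
SLC44A4: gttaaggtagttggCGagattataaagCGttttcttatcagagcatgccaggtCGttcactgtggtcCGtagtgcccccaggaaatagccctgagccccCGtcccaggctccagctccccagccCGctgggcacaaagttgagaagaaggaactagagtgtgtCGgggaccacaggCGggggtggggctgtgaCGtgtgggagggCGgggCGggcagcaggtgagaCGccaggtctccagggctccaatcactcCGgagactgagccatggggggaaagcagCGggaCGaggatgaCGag
CALML3: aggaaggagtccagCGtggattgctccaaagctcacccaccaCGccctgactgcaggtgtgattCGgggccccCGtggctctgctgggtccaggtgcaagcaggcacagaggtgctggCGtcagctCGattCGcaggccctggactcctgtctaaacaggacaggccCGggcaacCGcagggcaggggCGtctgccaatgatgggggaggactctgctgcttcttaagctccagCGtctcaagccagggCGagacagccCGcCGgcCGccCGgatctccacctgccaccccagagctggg
These lie at chr17:7262429-7262728 for CLDN7, chr11:2001217-2001516 for H19, chr6:31878948-31879247 for SLC44A4, all on the minus strand, and chr10:5524711-5525010 for CALML3 on the plus strand. The CLDN7 promoter holds 30 CG, a number reached by 22.4% of the 35116 promoters of this length, and those of SLC44A4 and CALML3 hold 16 each, reached by 47.5%. The H19 entry lies at the upper end of the annotated gene (chr11:1995176-2001470) and holds 6 CG, reached by 66.3%. Any start of H19 further inside the gene was not examined. These shares are over all entries (median 14 CG), of which a gene can have several. For the entry of each gene with the most CG, the median over 10232 genes tested was 28 (quartiles 21 and 36). It was 29.5 CG for 282 genes that rose and 28 for 218 that fell. By that measure CLDN7 lay near the median, and the entries shown for SLC44A4, CALML3 and H19 lay below the lower quartile. The letters say nothing about whether these CG were methylated in SW620.

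**Figure D2:**
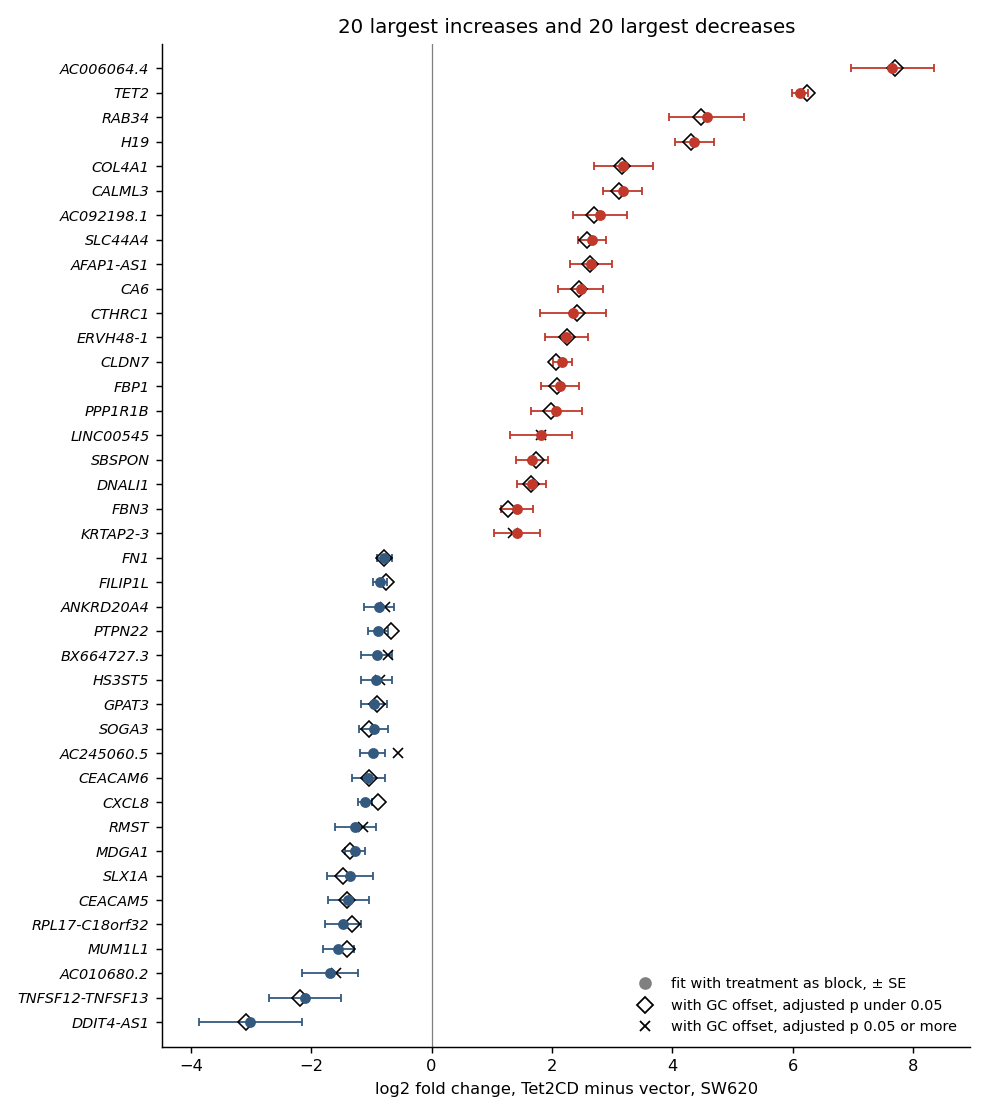
Log2 fold change of Tet2CD against vector in SW620 (horizontal axis) for the 20 largest increases and 20 largest decreases past the threshold, with circles and bars for the value ± SE. Diamonds mark the value with an offset for GC content where its adjusted p was under 0.05 and crosses where it was not, as for KRTAP2-3 (1.35) and AC245060.5 (-0.55).

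Among the 20 largest increases were several genes with few or no counts in vector cells. RAB34, a small GTPase gene of cilium formation, had 91 counts in the Tet2CD and 3 in the vector libraries and rose by 4.57 (SE 0.62, adjusted p = 0.000306), with 7.78 and 1.04 CPM in the Tet2CD libraries with TGFB1 and 3.26 to 4.03 CPM in the others. The collagen IV gene COL4A1 rose by 3.19 (SE 0.49, adjusted p = 0.000877) from 9 counts to 99, and COL4A2, its neighbour on the opposite strand, by 0.60 (SE 0.11, adjusted p = 0.00394) at 29.9 against 19.7 CPM. The secreted carbonic anhydrase gene CA6 rose by 2.48, the gluconeogenic enzyme gene FBP1 by 2.13, the phosphatase inhibitor gene PPP1R1B by 2.07, the secreted protein genes CTHRC1 by 2.35 and SBSPON by 1.67, the axonemal dynein gene DNALI1 by 1.66 and the fibrillin gene FBN3 by 1.42. SBSPON stood at 28.1 and 24.8 CPM against 4.89 and 5.725 CPM with RepSox. It was at 6.04 and 2.865 against 1.58 and 2.69 CPM with DMSO, and at 2.78 and 3.82 against 2.24 and 1.79 CPM with TGFB1. The endogenous retroviral locus ERVH48-1 rose by 2.24 and the non-coding AC092198.1 by 2.80. All of these kept their call with the GC offset, whereas LINC00545 (1.82, adjusted p = 0.0501 with the offset) and KRTAP2-3 (1.42, adjusted p = 0.0508) did not.

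AC006064.4, annotated as antisense and lying within GAPDH on the other strand, had the largest fitted change. Its counts came from the 2 Tet2CD libraries with RepSox alone (25.3 and 19.5 CPM), and the other 10 libraries had none. Against a floor of 3 counts over the vector libraries it was at least 57.8-fold higher. GAPDH stood at 5440 and 5677 CPM on average, so the gene of origin of these reads is uncertain.

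CXCL8, the gene of the chemokine interleukin-8, had the smallest p among genes that fell. It stood at 6.29 and 7.64 CPM in Tet2CD cells with DMSO, 15 and 19.4 with TGFB1 and 17.5 and 23.6 with RepSox, against 20.3 and 15.2, 39.1 and 36, and 38.8 and 39.7 CPM in vector cells. Within every treatment the Tet2CD libraries were lower (-1.10, SE 0.12, adjusted p = 1.87e-05, and -0.89 with the GC offset). The immediate early gene EGR1 stood at 110 and 118 CPM against 198 and 211 with DMSO, 156 and 152 against 275 and 262 with TGFB1, and 34.6 and 31.4 against 39.1 and 40.8 with RepSox. Its level with RepSox was low in both constructs, and it fell by 0.70 on the log2 scale (SE 0.08, adjusted p = 3.9e-05). EGR3, of the same family, had a fold change of -0.58 (SE 0.09, adjusted p = 0.00113).

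MDGA1, which encodes a GPI-anchored adhesion protein, had 3.52 and 1.43 CPM in Tet2CD cells with DMSO, 8.61 and 8.34 with TGFB1 and 10.3 and 10.6 with RepSox, against 3.8 and 4.18, 19.2 and 17.2, and 32.4 and 30.4 CPM. Libraries stood apart within each treatment, narrowly with DMSO (-1.27, SE 0.16, adjusted p = 0.000141). Decreases were also seen for the cell surface glycoprotein genes CEACAM5 (-1.38) and CEACAM6 (-1.05), the lipid synthesis gene GPAT3 (-0.95), the phosphatase gene PTPN22 (-0.89), FILIP1L (-0.86), SOGA3 (-0.96) and MUM1L1 (-1.55). CEACAM5 was at 26.2 and 26.8 CPM in vector cells with RepSox against 7.52 and 8.36 CPM in Tet2CD cells, but at 0 and 0.224 CPM against 1.39 and 0.347 CPM with TGFB1, where the direction was the opposite. CEACAM6 was at 15.7 and 14.7 CPM in vector cells with RepSox against 8.52 and 6.08 CPM in Tet2CD cells. With DMSO and TGFB1 it was at 1.27 CPM or less in every library. The brain non-coding gene RMST (-1.27) and the heparan sulphate sulphotransferase gene HS3ST5 (-0.92) fell in the main comparison and missed the threshold with the GC offset (adjusted p = 0.0597 and 0.0673), as did the non-coding or antisense genes AC245060.5 (-0.98, adjusted p = 0.14), AC010680.2 (-1.69, adjusted p = 0.0605) and BX664727.3 (-0.91, adjusted p = 0.0776). The values of TNFSF12-TNFSF13 (-2.10) and RPL17-C18orf32 (-1.47), which are read-through loci, of SLX1A (-1.36) and ANKRD20A4 (-0.88, adjusted p = 0.0795 with the offset), which have near-identical copies, and of the antisense gene DDIT4-AS1 (-3.01) are uncertain, since reads may be shared with other genes.

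Imprinted genes were taken as a group because imprinting rests on methylation. Of 23 tested members 3 rose and 1 fell, where 2.71% and 1.94% of all genes did, and the median of the list was 0.01 against 0.01 for all genes tested. Beside H19, the growth factor gene IGF2 rose by 1.28 (SE 0.15, adjusted p = 5.55e-05). It stood at 14.3 and 22.4 CPM in Tet2CD cells with DMSO, 49.7 and 30.2 with TGFB1 and 57.4 and 67.7 with RepSox, against 6.02 and 6.86, 20.4 and 23.7, and 22.9 and 18.6 CPM in vector cells. The Tet2CD libraries were higher within each treatment. The zinc finger gene PLAGL1 rose by 0.66 (SE 0.12, adjusted p = 0.00407), and the retrotransposon-derived PEG10 had -0.24 (adjusted p = 0.045, and 0.0637 with the GC offset).

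H19 and IGF2 are neighbours in a domain of chromosome 11 in which methylation of a shared control region sets which parental copy is read. Of 29 genes tested whose lower coordinate lies within 1000000 bases of that of H19 (chr11:1995176-2001470), 4 rose and 0 fell, and 20 had a value above 0. This window was chosen after the values of H19 and IGF2 were known, and no GC offset entered its counts. Of all genes tested 2.71% rose and 51.4% were above 0, and of the 793 tested on chromosome 11, 4.41% rose. Of the 27 genes of the window without H19 and IGF2, 2 rose and 18 were above 0. The others were the tyrosine hydroxylase gene TH (chr11:2163929-2171877), with 0.93 (SE 0.17, adjusted p = 0.00394) at 10.5 against 5.58 CPM, and the synaptotagmin gene SYT8 (chr11:1828307-1837521), with 1.06 (SE 0.21, adjusted p = 0.00686) at 6.17 against 2.98 CPM. MRPL23-AS1 and LINC01219, which lie between SYT8 and H19, were at 0.21 (adjusted p = 0.454) and 0.47 (adjusted p = 0.452). In the imprinted domain beside it KCNQ1OT1 (-0.05), CDKN1C (0.33, adjusted p = 0.147) and PHLDA2 (-0.13) were not called.

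**Figure D3:**
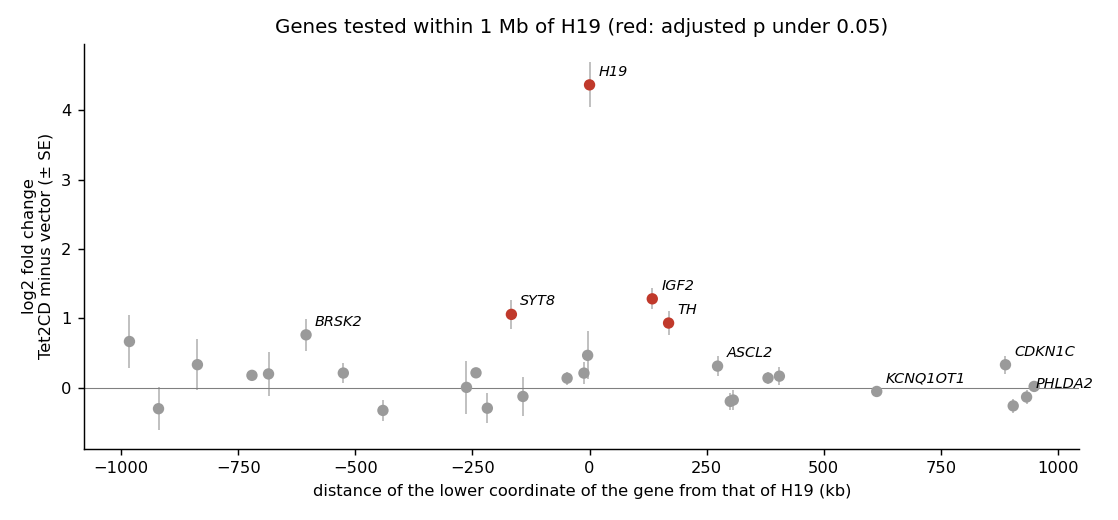
Log2 fold change (± SE) of Tet2CD against vector in SW620 for the 29 genes tested around H19, by the distance in kb between lower coordinates. Red points passed the threshold: H19 at 4.36, IGF2 at 1.28, SYT8 at 1.06 and TH at 0.93, and the other genes lie between -0.33 and 0.76.

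The DNA methylation machinery was next. Of 24 tested enzymes and readers 3 rose and 0 fell, TET2 among them, where 2.71% of all genes rose. The rise of TET2 was fixed by the construct, so only MBD3 and UHRF1 can be set beside that share. The methyl-CG-binding protein gene MBD3 had 0.39 (SE 0.07, adjusted p = 0.00394, and 0.24 with the GC offset) at 117 against 89.9 CPM, and UHRF1, which guides the maintenance methyltransferase to new DNA, had 0.32 (SE 0.07, adjusted p = 0.00947). The maintenance methyltransferase gene DNMT1 was at -0.01, and the other family members TET1 (-0.27, adjusted p = 0.121) and TET3 (-0.11) were not called. The list's median was 0.02. None of 13 tested genes of TET2 partners was called, with HCFC1 at 0.24 (adjusted p = 0.0636). Of 31 germline and cancer-testis genes only 2 had enough counts, SMC1B (1.28, adjusted p = 0.078) and MAGEB2 (0.52, adjusted p = 0.384), and neither was called. Of 22 tested genes known for promoter methylation in colorectal cancer 1 rose and 2 fell, where 2.71% and 1.94% of all genes did. The increase was IGF2, and the decreases were VIM (-0.33) and the claudin gene CLDN1 (-0.29, adjusted p = 0.162 with the GC offset). With the GC offset 1 was higher and 1 lower, against 1.99% and 1.75% of all genes.

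Of 26 claudins and tight junction genes 3 rose and 1 fell (median -0.03), where 2.71% and 1.94% of all genes did, CLDN7 by far the most, with CLDN11 (0.25) and MARVELD3 (0.40, adjusted p = 0.0733 with the GC offset) at smaller values. With the GC offset 1 member was higher and 1 lower. CLDN3 (0.38, adjusted p = 0.0628) and CLDN4 (0.01) were not called. Of 23 epithelial genes KRT7 rose and the mucin gene MUC1 fell (-0.46, SE 0.11, adjusted p = 0.0245). With the GC offset 1 epithelial gene was higher and 3 were lower, against 1.99% and 1.75% of all genes. CDH1, the gene of E-cadherin, stood at 253 and 244 CPM in Tet2CD cells against 243 and 248 with DMSO, 398 and 385 against 471 and 456 with TGFB1, and 227 and 230 against 337 and 321 with RepSox. It was close to equal with DMSO and lower in Tet2CD cells with the other treatments, and over all treatments it was at -0.25 (SE 0.07, adjusted p = 0.0553, and 0.0287 with the GC offset).

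Of 20 tested mesenchymal and matrix genes 2 rose, COL4A1 and COL4A2, and 4 fell (median -0.08), where 2.71% and 1.94% of all genes did. The decreases were fibronectin, FN1 (-0.78, SE 0.12, adjusted p = 0.00113), the repressor of epithelial genes ZEB1 (-0.62, SE 0.13, adjusted p = 0.00947), the intermediate filament gene VIM (-0.33, SE 0.07, adjusted p = 0.0154) and the laminin gene LAMB1 (-0.26, adjusted p = 0.0303). FN1 lay between 11.8 and 39.6 CPM in Tet2CD and between 29.3 and 45.8 CPM in vector cells, which overlap across treatments. With the GC offset 2 were higher and 6 lower, against 1.99% and 1.75% of all genes. The list's median was -0.09 with DMSO, 0.25 with TGFB1 and -0.32 with RepSox.

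Of 30 TGF-beta/SMAD targets and feedback genes 2 rose and 2 fell (median -0.09), where 2.71% and 1.94% of all genes did. With the GC offset 1 was higher and 7 lower, against 1.99% and 1.75% of all genes. TGFBR2, the type II receptor of the pathway, stood at 162 and 158 CPM against 202 and 214 with DMSO, 183 and 182 against 245 and 228 with TGFB1, and 151 and 156 against 232.5 and 208 with RepSox. All 6 Tet2CD libraries were below all 6 vector libraries (-0.42, SE 0.06, adjusted p = 0.000354). The inhibitory SMAD6 rose by 0.37 (adjusted p = 0.0254) and the actin-associated TAGLN by 0.52 (adjusted p = 0.0366, and 0.0675 with the offset).

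WNT genes were called in both directions, 2 members of each of 2 lists, where 4.65% of all genes were called. Of 24 WNT/beta-catenin targets the WNT inhibitor gene APCDD1 rose (0.63, SE 0.09, adjusted p = 0.000354) and PROX1 fell (-0.31, adjusted p = 0.0211, and 0.0506 with the GC offset), and of 31 pathway components GSK3A rose (0.34, adjusted p = 0.0549 with the offset) and the co-receptor gene LRP6 fell (-0.32, SE 0.07, adjusted p = 0.00947). The medians of the lists were 0.01 and 0.00, and that of all genes tested 0.01. CTNNB1, which encodes beta-catenin, lay between 406 and 482 CPM in Tet2CD and between 412 and 487 CPM in vector cells (0.00, SE 0.06, adjusted p = 0.979), and the target AXIN2 was at 0.05. RORA lay between 3.26 and 16.1 CPM against 1.19 and 18.2 CPM (0.01, SE 0.21, adjusted p = 0.991), with its highest levels with TGFB1 in both constructs. None of the 19 tested genes of the clock list, which holds RORA, was called, with PER3 at 0.54 (adjusted p = 0.122). SPARC had 3 counts in the 6 Tet2CD libraries and 0 in the vector libraries, at the floor of detection, so no difference was detectable at this depth.

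Lipid genes were described as 2 lists. Of 27 tested genes of cholesterol synthesis, uptake and export 5 rose and 0 fell, where 2.71% of all genes rose, with a list median of 0.18, and of 32 fatty acid genes 5 rose and 1 fell, with a median of 0.11 (all genes 0.01). Among the increases were lanosterol synthase, LSS (0.47, SE 0.07, adjusted p = 0.000877), the cholesterol importer NPC1L1 (0.78, adjusted p = 0.0101), and DHCR7 (0.31, adjusted p = 0.0673 with the GC offset), an enzyme of late cholesterol synthesis. FADS2, a fatty acid desaturase gene, stood at 26.9 and 24.8 CPM against 12 and 12.5 with DMSO, 64.5 and 42.4 against 22.1 and 25.3 with TGFB1, and 21.6 and 22.8 against 13.4 and 12.9 with RepSox. It was higher in Tet2CD cells within every treatment (1.03, SE 0.12, adjusted p = 4.72e-05).

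FASN, fatty acid synthase, lay between 477 and 573 CPM in Tet2CD and between 260 and 452 CPM in vector cells, again without overlap (0.56, SE 0.09, adjusted p = 0.000932). FADS1 (0.28), SREBF1 (0.30), a master regulator of lipid synthesis, and FABP5 (0.31) also rose, SREBF1 and FADS1 without a call under the offset (adjusted p = 0.0861 and 0.0574), and the lipid droplet gene PLIN2 had -0.22 (adjusted p = 0.0369). With the GC offset the counts were 4 higher and 0 lower for cholesterol genes and 4 and 2 for fatty acid genes (all genes 1.99% and 1.75%), and without vector RepSox replicate 2 they were 7 and 1, and 8 and 2, where 5.81% of all genes were higher and 6.41% lower.

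**Figure D4:**
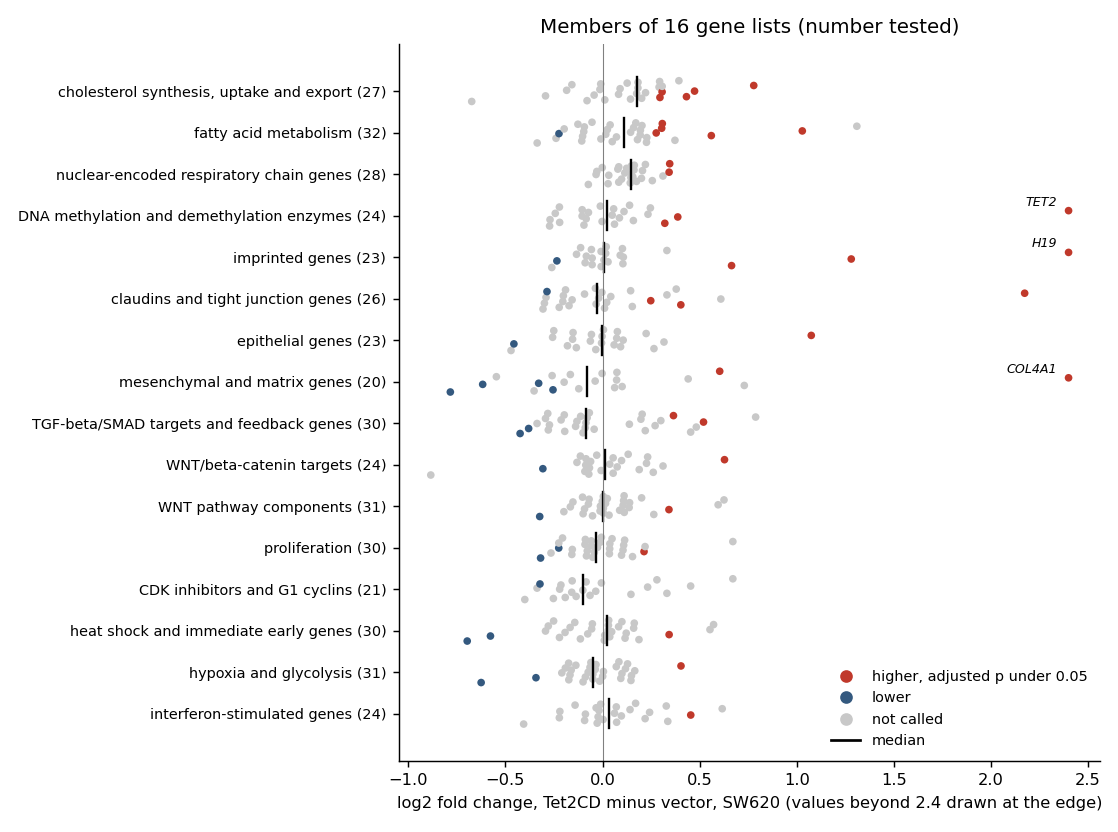
Log2 fold change of Tet2CD against vector in SW620 (horizontal axis) of each tested member of 16 gene lists, with the number tested in brackets. Red and blue points passed the threshold upwards and downwards, grey points did not, and the black bar is the median, which is 0.18 for the cholesterol list and -0.10 for CDK inhibitors and G1 cyclins.

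In the other lists up to 3 members were called, and the share of all genes called was 4.65%. ATF5, a transcription factor of the stress response, lay between 16.7 and 35.3 CPM in Tet2CD and between 7.46 and 12.3 CPM in vector cells, without overlap (1.28, SE 0.14, adjusted p = 1.84e-05). It and the amino acid transporter gene SLC7A5 (0.27, adjusted p = 0.138 with the GC offset) were the 2 of 26 stress response genes that rose, and 0 fell. In the list of heat shock and immediate early genes (30 tested) EGR1 and EGR3 fell and the chaperonin gene HSPE1 rose (0.34, adjusted p = 0.0419). With the GC offset 1 member of this list was higher and 5 were lower, against 1.99% and 1.75% of all genes. Of 31 hypoxia and glycolysis genes ANKRD37 (-0.63, SE 0.11, adjusted p = 0.00374) and the collagen hydroxylase P4HA1 (-0.34, adjusted p = 0.102 with the offset) fell and the oxygen sensor EGLN3 rose (0.40, SE 0.09, adjusted p = 0.0114). Of 30 proliferation genes the replication clamp PCNA rose (0.21, adjusted p = 0.0497) and the spindle genes TPX2 (-0.23, adjusted p = 0.0285) and KIF11 (-0.32, adjusted p = 0.286 with the offset) fell, while MKI67 was at -0.16 (adjusted p = 0.191). BTG1 was the 1 of 21 CDK inhibitors and G1 cyclins with a call (-0.32, SE 0.06, adjusted p = 0.00224, and 0.0595 with the offset).

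Of 28 nuclear-encoded respiratory chain genes NDUFA13 (0.34, adjusted p = 0.0668 with the offset) and NDUFA1 (0.35, adjusted p = 0.0277) rose, and 0 fell, where 2.71% of all genes rose. In this list 24 members had a value above 0 (median 0.15), as did 51.4% of all genes tested. None of 33 ribosomal protein genes was called (median -0.05). Of 22 intestinal differentiation genes CEACAM5 and CEACAM6 fell and 0 rose. Without vector RepSox replicate 2, 1 member was lower (all genes 6.41%), and with the GC offset 3 were (all genes 1.75%). CEACAM5 was not called without that library. Of 24 interferon-stimulated genes IFITM3 rose (0.45, SE 0.11, adjusted p = 0.0239). Among the markers of other cell types CD68 fell (-0.51, adjusted p = 0.0211), PECAM1 rose (0.98, adjusted p = 0.0265), and no fibroblast or kidney marker was called, with FBLN1 at 0.29, COL1A1 at -0.20 and TBX2 at -0.07.

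By treatment, 7 genes were called with DMSO (0.0501%), 144 with TGFB1 (1.03%, 101 higher and 43 lower) and 27 with RepSox (0.193%, 17 higher and 10 lower). With DMSO they were TET2, KRT7, CLDN7, H19, CALML3 and SLC44A4, all higher, and EGR1, which was lower. These treatments share no library, but the labels name no separate infections for them. Equal signs across treatments are therefore no independent evidence on the construct, which cannot be told apart from the history of the selected populations. The counts of equal signs are from the fit without the GC offset. All 7 had the same sign in the other treatments. Of the 144 genes called with TGFB1, 136 had the same sign with DMSO and 116 with RepSox, where 66.9% and 56.7% of all genes tested did. Of the 27 called with RepSox, 25 and 22 had the same sign with DMSO and TGFB1 (all genes 59.2% and 56.7%).

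The count with TGFB1 rested on single libraries. It was 1 without vector TGFB1 replicate 1, 8 without replicate 2, 816 without Tet2CD TGFB1 replicate 2 and between 41 and 494 without any 1 of the other libraries except Tet2CD TGFB1 replicate 1 (140), and 48 with the GC offset. With RepSox it ran from 5 without vector RepSox replicate 1 to 99 without Tet2CD TGFB1 replicate 1, with 57 without vector RepSox replicate 2 and 71 with the GC offset (32 higher and 39 lower), and with DMSO from 3 without vector DMSO replicate 1 to 21 without Tet2CD TGFB1 replicate 1 or 2.

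Whether the effect of Tet2CD itself differed between treatments was tested as an interaction. No gene passed in edgeR's quasi-likelihood test (smallest adjusted p = 0.184), 964 had an unadjusted p under 0.05, and DESeq2 called 34. TET2 was among the 10 smallest p, with 6.85 with DMSO, 5.80 with TGFB1 and 5.82 with RepSox (adjusted p = 0.656). Tenascin C, TNC, had -0.31, 0.09 and -0.74 (adjusted p = 0.656), the ribosome assembly gene NSA2 -0.36, -0.39 and 0.21 (adjusted p = 0.656), and MTRNR2L12 and MTRNR2L8, nuclear copies of mitochondrial ribosomal RNA, -0.41, -0.51 and 0.22, and -0.38, -0.34 and 0.20 (adjusted p = 0.462 and 0.292). The others were AC026464.4, AP005263.1, ANO1-AS1, ZNF709 and a gene without a symbol, all with adjusted p of 0.184 or more, and AP005263.1, ANO1-AS1 and ZNF709 had values of over 3 with opposite signs between treatments at mean levels under 10 CPM.

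SW480, a line from the primary tumour, carried the same constructs and treatments in the other 12 libraries and shows where SW620 differed. The difference between the effects in the lines was called for 3083 of 15302 genes (20.1%), and for 152 of the 650 genes called in SW620. Of the 379 genes that rose in SW620, 306 had a value above 0 in SW480 (80.7%, against 49.5% of all genes tested), and of the 271 that fell, 237 had a value below 0 (87.5%). Mean GC content was also higher in Tet2CD than in vector libraries of SW480, 51.4% to 53.6% against 50.3% to 51.1%. With GC offsets in both lines the shares were 70.7% of the 229 and 73.4% of the 128 genes called with and without the offset. With that offset 51% of all genes tested were above 0 in SW480. The 3 SW480 Tet2CD libraries numbered replicate 1 stood apart from their partners in an earlier fit of these data. Without them 3077 of 15769 genes tested differed between the lines (1888 higher and 1189 lower in SW620, against 1519 and 1564 with them), and 207 of the 650.

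The effect on CLDN7 was larger in SW620. In SW480 it was 0.13 (SE 0.16), at 213 CPM in Tet2CD and 200 CPM in vector cells, and the difference from SW620 was 2.07 (SE 0.27, adjusted p = 0.000132, and 2.32e-08 without the 3 libraries). On that scale CLDN7 stood at 24.9 CPM in SW620 Tet2CD cells, below both. IGF2 rose more in SW620 (0.33 in SW480, difference 0.97, SE 0.29, adjusted p = 0.029), as did FASN, which had -0.40 in SW480 (difference 0.95, SE 0.13, adjusted p = 0.000158). H19 rose more in SW480, by 11.45, from 9 counts in the vector to 19957 in the Tet2CD libraries (difference -7.31, SE 0.69, adjusted p = 5e-06), and so did AFAP1-AS1, by 9.30 (difference -6.59, SE 0.60, adjusted p = 4.29e-06), CALML3, by 6.22 (difference -3.14, SE 0.89, adjusted p = 0.0234), and KRT7, by 3.24 (difference -2.16, SE 0.38, adjusted p = 0.00154). SPARC stood at 67.6 CPM in the SW480 Tet2CD and 2.63 CPM in the SW480 vector libraries, while the 6 SW620 Tet2CD libraries held 3 counts and the vector libraries 0. RORA did not follow SPARC in SW480. Its mean was 42 CPM in the Tet2CD libraries (24.1 to 62.65) and 41 CPM in the vector libraries (22.9 to 70.8). EGR1 fell more in SW480 (-1.69, difference 1.04, SE 0.19, adjusted p = 0.0022), and CDH1 was at 0.50 there (difference -0.76, SE 0.20, adjusted p = 0.0168).

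For several of the leading genes no difference between the lines was found. SLC44A4 had 2.67 in SW620 and 3.06 in SW480 (difference -0.33, SE 0.41, adjusted p = 0.688), ATF5 1.28 and 1.33 (difference -0.07, SE 0.23, adjusted p = 0.864), FADS2 1.03 and 0.61 (difference 0.38, SE 0.18, adjusted p = 0.121) and CXCL8 -1.10 and -2.20 (difference 1.05, SE 0.60, adjusted p = 0.328). The standard errors show how wide the remaining range is, and for CXCL8 it is wide. TET2 itself had 6.12 and 6.21 (adjusted p = 0.977), but without the 3 SW480 libraries 6.79 in SW480 and a difference past the threshold (adjusted p = 0.012).

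**Figure D5:**
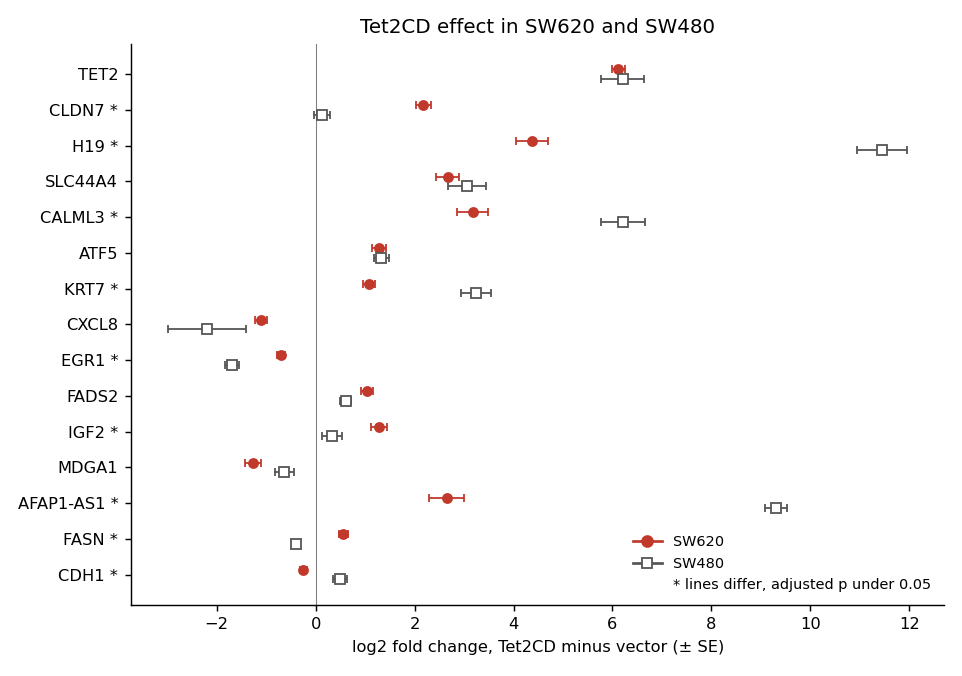
Log2 fold change of Tet2CD against vector (± SE, horizontal axis) for 15 genes in SW620 (red circles, fit of 12 libraries) and SW480 (open squares, fit of 24 libraries), with a star where the difference between lines passed the threshold. CLDN7 is at 2.17 in SW620 and 0.13 in SW480, and H19 at 4.36 and 11.45.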

How the data were processed

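RNA-seq libraries of SW620 and SW480 cells were made by the authors with TRIzol and a TruSeq kit. The authors deposited 1 table per library with RSEM's expected counts, which estimate the fragments of each gene and need not be whole, with TPM, scaled for transcript length, and with FPKM, which was not used. Bowtie and RSEM appear in the submitters' processing notes with no version, next to the build mm10, which is of mouse. Every identifier is a human one and was treated as such. The study's methods name a GC normalization, but whether it entered the deposited expected counts, and whether strand was used, could not be learned from the sources used here. Symbols and GRCh38 positions came from GENCODE 29 (32777 of 33382 genes, 98.2%, the same with GC content), and promoters from RefSeq (GRCh38.p14). No mitochondrial gene is listed.

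Expected counts were rounded and tested with edgeR 4.0.16 in R 4.3.3 (TMM scaling, filterByExpr, quasi-likelihood test, Benjamini-Hochberg adjustment over all genes tested, threshold 0.05), with treatment and construct as terms (8 residual degrees of freedom). The spread between libraries was 9.55% (common biological coefficient of variation). Effects by treatment and the interaction used a mean per group, and the comparison with SW480 all 24 libraries. The scripts were tested on simulated data. Libraries of a group differed by more than sampling noise (chi-square per degree of freedom 1.63 to 5.26, correlation of log2 CPM 0.967 to 0.983), and none was a duplicate. Named genes are the 20 largest increases and 20 largest decreases of called genes that have a symbol and a mean log2 CPM of at least 1, further TET2, H19, AFAP1-AS1, CLDN7, RORA, SPARC, CDH1 and CTNNB1, up to 2 called members of each list in each direction (or the 2 largest changes where none was called), and 10 genes of the interaction. A few genes this rule picks are not reported here. Other genes of a list that the text names were chosen after their values were seen, as were the genes beside H19. The members, the lists and this rule were chosen with earlier results of these data known, and 2 lists, of genes the study follows and of genes called in an earlier fit (4 of 4 rose), are no independent evidence. Of the former 4 were tested, and TET2 rose. For a gene at 0 in all libraries of a group the fold is a bound against a floor of 3 counts, which covers counting error only. Alternatives were RLE scaling, other filters, DESeq2 1.42.0, all 24 libraries, a term for library numbers, a GC offset (a smooth curve, span 0.3), other designs and leaving out each library.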

Additional observations from a re-analysis of the deposited data

Results flagged for a closer look

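The effect of Tet2CD differed between the lines for 32 of the 103 genes picked by the naming rule, FASN among them. Of all 15302 genes tested, 20.1% differed. The rule favours large changes and was set with earlier results known, so the count is no independent evidence about these genes. The difference itself was tested (edgeR's quasi-likelihood test over 24 libraries, log2 fold change in SW620 minus that in SW480). Values of 8 of the 32 are given here. The difference was 2.07 for CLDN7 (adjusted p = 0.000132), 1.04 for EGR1 (adjusted p = 0.0022) and 0.97 for IGF2 (adjusted p = 0.029). It was -7.31 for H19 (adjusted p = 5e-06), -6.59 for AFAP1-AS1 (adjusted p = 4.29e-06), -3.14 for CALML3 (adjusted p = 0.0234), -2.16 for KRT7 (adjusted p = 0.00154) and -0.76 for CDH1 (adjusted p = 0.0168). All 8 also passed without the 3 SW480 Tet2CD libraries of replicate 1, where the adjusted p of CALML3, the largest of the 8, was 0.00599. H19 and CALML3 had a low replicate 2 with TGFB1 in SW620 Tet2CD cells, and CLDN7 was already at 200 CPM in SW480 vector cells. Whether these values bear on the differences was not tested.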

How the results depend on the processing

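The 650 calls over all treatments became 1196 with no filter on low counts, 48 with all 24 libraries in the fit, where the spread was 21.3% against 9.18% for group means of the 12, and 13 with no treatment term. Leaving out 1 library gave 245 to 1771. With DMSO the 7 calls became 177 with no filter, 14 by DESeq2 and 4 with 24 libraries, and 3 to 21 with a library left out. With TGFB1 the 144 became 672 with no filter, 1 with 24 libraries and 48 with the GC offset, and 1 to 816 with a library left out. With RepSox the 27 became 175, 5 and 71 in those settings, and 5 to 99 with a library left out. The interaction had 123 calls with no filter, 34 by DESeq2 and 0 to 51 with a library left out, and the difference between lines 1926 to 6402.

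Replicates carry no number in the labels. As a replicate block, the set of library numbers gave 509 calls over all treatments, 7 with DMSO, 62 with TGFB1, 20 with RepSox, 0 in the interaction and 3867 between lines. Deviations of libraries of the same set correlated at -0.146 to 0.055 (median -0.003 over 15 pairs of groups), so the sets were not taken as pairs.

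Values near 0 changed sign: NSA2 to 0.00741 with the GC offset, ANO1-AS1 to 0.938 by DESeq2, ZNF709 to 0.855 with 24 libraries and 0.883 with group means, CTNNB1 to -0.000209 with no filter and -0.00614 with 24 libraries, and RORA to -0.00671 with no filter and -0.122 with no treatment term. With a library left out the ranges were -0.857 to 0.509 for ANO1-AS1, -0.597 to 0.26 for ZNF709, -0.0181 to 0.0284 for CTNNB1 and -0.154 to 0.0554 for RORA. With 2 libraries a group and 2817697 to 4410567 counts, small changes of genes with low counts may be missed. The cause of the other shifts was not tested.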
